A study of Mus musculus with 17 samples.

Results

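The voltage-gated and potassium ion channel genes of the mouse hypothalamus were compared between control, STZ and ob/ob mice. Members were the probe sets of the array with 1 platform gene symbol of the families Kcna to Kcnv, Cacna, Cacnb, Cacng or Scn1 to Scn11, without Kcnj10. The rule uses the symbols and no measured value, but it was chosen with earlier results of these data known. This gave 93 of the 12393 genes named singly on the array, in 13 families, measured by 136 of its 22690 probe sets. The hypothalami came from male C57Bl/6 mice aged 9 weeks, with 1 Affymetrix array for each of 17 mice. The 6 control mice were wildtype and had been given vehicle, and the 6 STZ mice, labelled as diabetic, had been given streptozotocin once, by intraperitoneal injection at 200 µg per g of body weight. Streptozotocin kills pancreatic beta cells, the source of insulin. The 5 ob/ob mice carry a mutation of the leptin gene in every cell and become obese. For them the labels state no injection of their own.

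Ion channels of these families set the excitability of neurons. Sodium channels carry the upstroke of the action potential, potassium channels repolarize the membrane and set its resting level, and calcium channels link firing to transmitter and peptide release. In the hypothalamus, ATP-sensitive potassium channels couple the firing of glucose-sensing neurons to their fuel supply. Leptin and insulin are known to act on the potassium conductances of feeding neurons.

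Across these families no gene passed the test in either model. The deposited value is a MAS5 signal, the linear brightness of a probe set, and it was compared on the log2 scale. Probe sets of low mean signal, below a geometric mean of 435 over the 17 arrays, were left out of the test, which kept 13576 probe sets. Of the channel genes, 49 were tested, on 69 probe sets, and the other 44 genes had only probe sets under that limit. In limma with Benjamini-Hochberg adjustment over all probe sets tested, 0 of 69 channel probe sets were past an adjusted p of 0.05 for STZ against control, 0 for ob/ob against control and 0 for ob/ob against STZ. Of all probe sets tested, 0.0516%, 0.125% and 0.0368% passed in these comparisons. The 95% interval of every one of the 69 channel probe sets lay within a 2-fold change in all 3 comparisons. It lay within a 1.41-fold change for 62 of 69 probe sets for STZ and for 58 of 69 for ob/ob against control.

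At an unadjusted p under 0.05, limma gave 3 channel probe sets higher in STZ than in control mice, which was 4.35% of the channels beside 3.87% of all probe sets. These belonged to Kcna1, Kcnma1 and Kcnn2. Another 3, of Kcna3, Kcne1l and Scn2a, were lower, 4.35% beside 4.38% of all probe sets. In ob/ob mice 10 channel probe sets were higher, or 14.5% of the channels beside 5.75% of all probe sets, and 4 were lower, 5.8% beside 6.12%. Between ob/ob and STZ mice 0 were higher, beside 1.93% of all probe sets, and 2, of Kcna6 and Scn1a, were lower, 2.9% beside 2%. The signals of the groups did not overlap for 0 channel probe sets in STZ against control (0.567% of all), for 2 in ob/ob against control (2.9% beside 1.91% of all) and for 0 in ob/ob against STZ (0.42% of all). The 2 were Kcna5, higher in every ob/ob mouse, and Kcna6, lower in every ob/ob mouse. The share farthest from its background was that of the channels higher in ob/ob mice. That count of 10 became 2 once the marker level of neighbouring brain regions was in the fit, as described with the marker values. Over all probe sets the count higher went from 780 to 489 in that fit. Some channels left the count with a like difference and a larger standard error. Single arrays also moved these counts: without control mouse 3 the channels higher in ob/ob mice were 5, and without control mouse 1, control mouse 5 or ob/ob mouse 3 they were 6. In these fits 747, 747, 681 and 670 of all 13576 probe sets were higher, beside 780 with every array. The channels higher in STZ mice were 6 without control mouse 2, and those lower were 1 without control mouse 1, 3 or 6 or STZ mouse 5. Of all 13576 probe sets, 707 were higher in STZ mice without control mouse 2, beside 525 with every array. The fits with 1 channel lower had 439 to 532 of all probe sets lower, beside 594 with every array.

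Of the voltage-gated potassium channels, 3 genes of the Kcna family are shown by the sequence upstream of their start because they carried the lowest p-values of the channels on the lower side or had groups that did not overlap. Each line gives the 250 bases before the annotated transcript start, from RefSeq on GRCm38.p6, read 5′ to 3′ on the strand of the gene, with the matches of the searched motifs in capitals.
Kcna3, chr3:107035912-107036161, plus strand: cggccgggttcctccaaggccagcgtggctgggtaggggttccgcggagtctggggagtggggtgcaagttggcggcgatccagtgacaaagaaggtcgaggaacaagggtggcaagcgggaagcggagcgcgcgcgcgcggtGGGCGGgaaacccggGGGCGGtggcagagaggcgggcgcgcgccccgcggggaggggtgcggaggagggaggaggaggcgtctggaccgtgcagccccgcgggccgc
Kcna5, chr6:126535556-126535805, minus strand: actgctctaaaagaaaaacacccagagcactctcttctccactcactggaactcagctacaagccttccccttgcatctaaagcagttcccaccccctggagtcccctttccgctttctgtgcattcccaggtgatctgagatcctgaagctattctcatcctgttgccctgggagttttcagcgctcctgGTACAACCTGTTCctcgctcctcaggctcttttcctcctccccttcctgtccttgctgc
Kcna6, chr6:126740675-126740924, minus strand: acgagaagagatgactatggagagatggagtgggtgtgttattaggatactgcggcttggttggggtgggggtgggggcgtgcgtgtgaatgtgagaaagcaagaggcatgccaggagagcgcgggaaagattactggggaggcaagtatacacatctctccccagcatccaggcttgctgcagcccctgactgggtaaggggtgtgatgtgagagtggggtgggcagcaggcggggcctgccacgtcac
The motifs searched on both strands were the TATA box (TATAAA), the GC box (GGGCGG), the box of the letters CCAAT, the cAMP response element (TGACGTCA), the E-box (CACGTG) and the palindromic glucocorticoid response element. The Kcna3 window holds 2 GC boxes, which begin 107 and 92 bases before the start. The Kcna5 window holds 1 match of the glucocorticoid response element, 59 bases before the start, a motif found in 0.387% of all 32851 promoter windows. The Kcna6 window holds none of the searched letters. The GC content was 74.4% for Kcna3, 53.2% for Kcna5 and 58.8% for Kcna6. Over the 102 windows matched to 74 of the 93 channel genes, the median GC content was 58%, beside 52.4% for all windows. A GC box stood in 43.1% of the channel windows and in 32.7% of all, and a TATA box in 2.94% and 12.4%. The CCAAT box stood in 25.5% of the channel windows and 33.8% of all, an E-box in 4.9% and 6.02%, a cAMP response element in 0% and 1.55%, and the glucocorticoid response element in 0.98% of the channel windows. These matches describe letters in a window and carry no test. Kcna5, Kcna1 and Kcna6 are neighbouring coding genes on chromosome 6, in this order, and Kcna3 lies beside Kcna2 on chromosome 3.

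The Kcna genes encode pore subunits of delayed-rectifier and low-threshold potassium channels, and 6 of them were tested. Kcna3, a pore subunit known from neurons and immune cells, read lower in both models than in controls without passing the test. Its signal was 599.7 to 909 in control mice, with a median of 732, and 384 to 659 in STZ mice, with a median of 541. In the ob/ob mice it was 604, 516, 633, 467 and 577. All 6 STZ mice and all 5 ob/ob mice lay below the control mean, here and for the genes that follow the mean of the log2 signals, and both groups overlapped the lowest controls. The log2 difference from control was -0.48 ± 0.13 (SE) for STZ (adjusted p = 0.237, limma) and -0.39 ± 0.13 for ob/ob (adjusted p = 0.239), or 0.716-fold and 0.761-fold. Of 6 microglial markers tested, all 6 were below control in ob/ob mice and 4 in STZ mice, with medians of -0.087 and -0.028. One of them, the fractalkine receptor gene Cx3cr1, stood at -0.49 ± 0.12 for ob/ob (unadjusted p = 0.000864, adjusted p = 0.106) and -0.19 ± 0.12 for STZ. Their summed signal was 18551.7 to 21286.1 in control, 18890.5 to 19816.6 in STZ and 16831 to 20042.4 in ob/ob mice, and the part of microglia in the Kcna3 values was not tested.

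Kcna1, a low-threshold axonal subunit, read higher in both models, also without passing the test. Its signal ran from 3036 to 4651 in control mice (median 3706) and from 3748 to 5386 in STZ mice (median 4743). In ob/ob mice it was 4359.8, 4227, 4279, 4849 and 5017. Every STZ and every ob/ob mouse lay above the control mean, with the highest control inside the range of both groups. The log2 difference was 0.33 ± 0.099 for STZ (adjusted p = 0.318) and 0.31 ± 0.10 for ob/ob (adjusted p = 0.234), a 1.26-fold and a 1.24-fold difference. With the marker level of neighbouring brain regions in the fit, described with the marker values, these became 0.17 and 0.029. The estimates for STZ and ob/ob rest on the same 6 control arrays, so that their likeness is not independent, for Kcna1 as for Kcna3.

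The neighbours of Kcna1 on the chromosome did not pass the test, and their values in ob/ob mice lay on opposite sides of control. Kcna5 read 845 to 1067 in control mice (median 971), 933 to 1191 in STZ mice (median 1051) and 1181, 1097, 1211, 1124 and 1079.7 in ob/ob mice. The lowest ob/ob mouse lay just above the highest control. The difference was 0.24 ± 0.076 for ob/ob (adjusted p = 0.19) and 0.13 ± 0.072 for STZ (adjusted p = 0.679), and with the neighbouring region covariate 0.094 and 0.039. Kcna6 read 1356 to 1608 in control mice (median 1408), 1305 to 1484 in STZ mice (median 1354) and 1198, 1252, 1215, 1162 and 1349 in ob/ob mice. Here the highest ob/ob mouse lay just under the lowest control. The difference was -0.23 ± 0.062 for ob/ob (adjusted p = 0.122, the lowest of all channels in that comparison) and -0.083 ± 0.059 for STZ (adjusted p = 0.764). Between ob/ob and STZ, Kcna6 differed by -0.15 ± 0.062, with an unadjusted p of 0.0252.

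**Figure D1:**
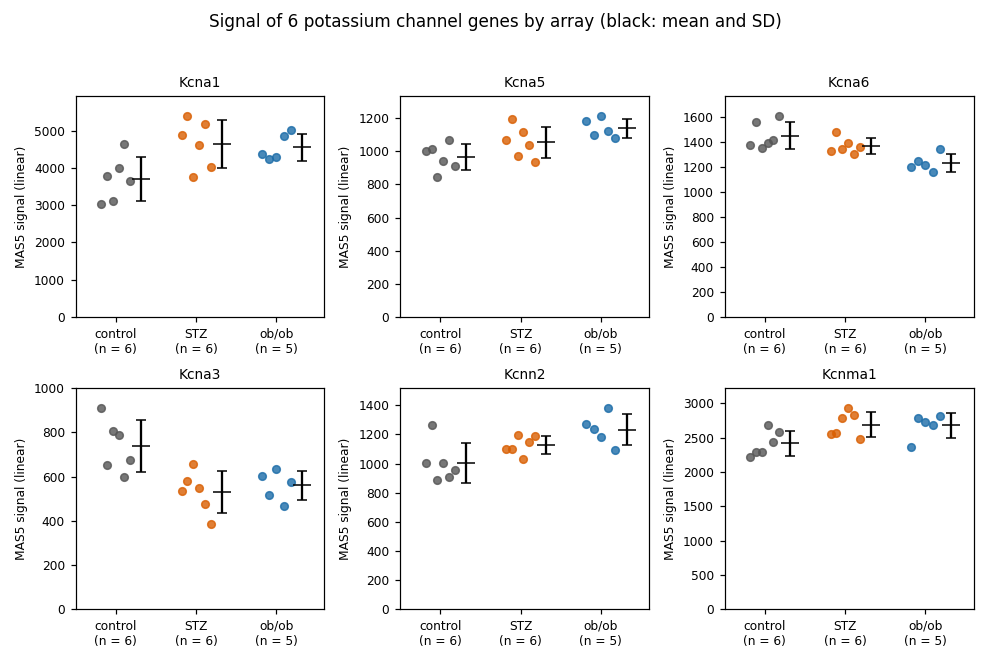
MAS5 signal (linear, axis from 0) of 6 potassium channel genes on each array, with 6 control, 6 STZ and 5 ob/ob mice as points and the mean ± SD of each group in black. Kcna5 and Kcna6 are the genes whose ob/ob points lie wholly above or below the control points, and Kcna3 is lower and Kcna1 higher in both models with overlapping groups.

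Of the other tested pore genes, Kcna2 and Kcna4, an axonal subunit and an A-type subunit, stood at -0.015 and -0.027 for STZ and at -0.016 and -0.14 for ob/ob. Kcnc1, the fast delayed rectifier of fast-spiking neurons, stood at 0.23 ± 0.14 for STZ (adjusted p = 0.686) and 0.33 ± 0.14 for ob/ob (adjusted p = 0.362). Its control signals alone ran from 2479 to 4637, which covered all 5 ob/ob mice, and the ob/ob value was 0.17 with the neighbouring region covariate. Kcnd2, the A-type pore subunit and the brightest probe set of this family in controls, stood at -0.081 and -0.0073. Kcnc4 and Kcna4 varied most between arrays of a group among the channel probe sets, with pooled SDs of 0.44 and 0.42 on the log2 scale, where the median was 0.156 for channels and 0.139 for all probe sets. Over the 9 Kv pore genes tested the median log2 difference was -0.015 for STZ, with 4 above 0, and -0.016 for ob/ob, with 3 above 0. Kcna7, Kcnd1, Kcnd3, Kcns1 and Kcns2 had low signal and were not tested. In the Kcnh family of slow and erg-type channels, Kcnh1, Kcnh2 and Kcnh3 had a median of 0.056 for STZ and 0.065 for ob/ob. Kcnq1 and Kcnq5, genes of the family that carries the M current, were both under the signal limit.

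The auxiliary subunits of these channels include the Kcnab beta subunits, the calcium-binding Kcnip proteins of A-type channels and the small Kcne proteins. Their 7 tested genes had a median of 0.0072 for STZ and 0.12 for ob/ob, with 5 of 7 above 0 in both. Kcnip2 read 482 to 827 in control mice (median 617) and 582 to 919 in STZ mice (median 655). In ob/ob mice it was 750.5, 802, 683, 956 and 789, above the control mean in all 5. The difference was 0.34 ± 0.14 for ob/ob (adjusted p = 0.34) and 0.13 ± 0.13 for STZ (adjusted p = 0.853). Both turned below 0 with the neighbouring region covariate, to -0.069 and -0.11. A second Kcnip2 probe set, under the signal limit, had another pattern in a limma fit without that limit. It stood at 0.58 ± 0.21 for STZ (unadjusted p = 0.0136, adjusted p = 0.585) and 0.024 ± 0.22 for ob/ob. Between ob/ob and STZ it was at -0.55 ± 0.22 (unadjusted p = 0.0225), where the tested probe set was at 0.22. Kcne1l, a member of the Kcne family, read 734 to 941 in control mice (median 799), 506 to 834 in STZ mice (median 676) and 559, 659, 626, 813 and 807 in ob/ob mice. Mice of both models lay below the control range and inside it. The difference was -0.26 ± 0.12 for STZ (adjusted p = 0.58) and -0.24 ± 0.12 for ob/ob (adjusted p = 0.464). Kcnip4, the brightest auxiliary member in controls after the filter, stood at 0.0025 ± 0.05 for STZ and -0.039 ± 0.052 for ob/ob.

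Calcium-activated potassium channels end bursts and shape the afterhyperpolarization. By brightest probe set, all 4 of their tested genes were above control in STZ mice, with a median of 0.12. In ob/ob mice 3 of 4 were, with a median of 0.13. Of all genes tested, 51.7% were above control in STZ mice and 51.9% in ob/ob mice. Kcnn2, a small-conductance channel, read 884 to 1265 in control mice (median 981), 1032 to 1194 in STZ mice (median 1125) and 1273, 1236, 1184, 1380.5 and 1095 in ob/ob mice. Control mouse 2, at 1265, stood apart from the other 5 controls, which reached 1006. The difference was 0.30 ± 0.085 for ob/ob (adjusted p = 0.149) and 0.18 ± 0.081 for STZ (adjusted p = 0.585). Without control mouse 2 the ob/ob difference was 0.37 and its adjusted p 0.0331, so the call on Kcnn2 turns on that 1 array. Over all probe sets tested, 38 passed without control mouse 2, beside 17 with every array. Kcnma1, the pore of the large-conductance channel, read 2213 to 2688 in control mice (median 2366), 2480.3 to 2931 in STZ mice (median 2679) and 2366, 2786, 2734, 2690.1 and 2819 in ob/ob mice. It was higher than the control mean in all 6 STZ mice and in 4 of 5 ob/ob mice. The difference was 0.16 ± 0.06 for STZ (adjusted p = 0.496) and 0.15 ± 0.063 for ob/ob (adjusted p = 0.356). The beta subunits Kcnmb2 and Kcnmb4, which set the gating of the Kcnma1 pore, stood at 0.086 and 0.04 for STZ and at -0.039 and 0.11 for ob/ob. The second tested probe set of Kcnmb2 was opposed in sign, at -0.029 for STZ and 0.039 for ob/ob.

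**Figure D2:**
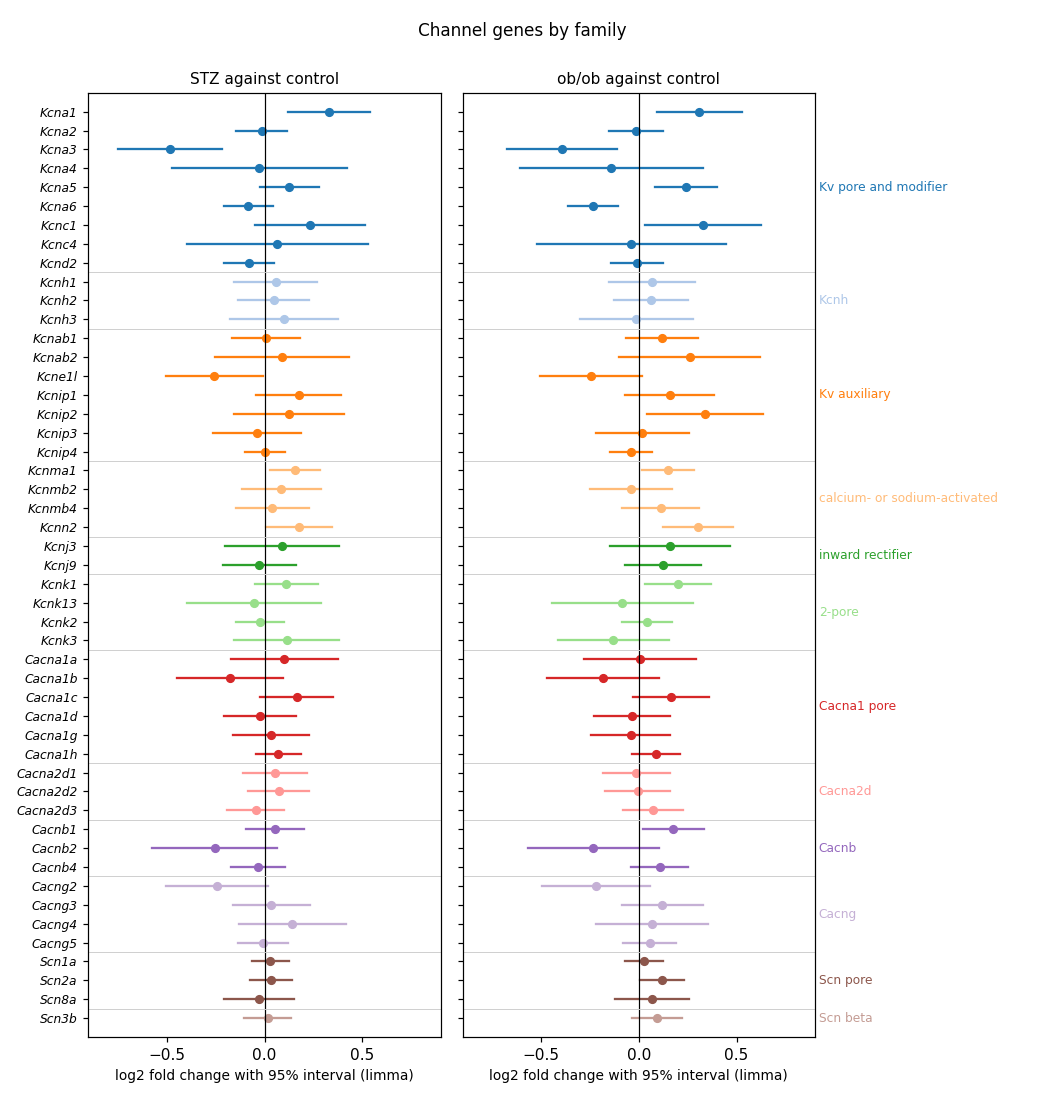
Log2 fold change against control with its 95% interval (limma) for the 49 channel genes tested, each by its brightest probe set, with STZ on the left and ob/ob on the right and colours for the 12 families that had a tested gene. Most intervals cross 0, no gene passed an adjusted p of 0.05, and among the intervals that stay clear of 0 are those of Kcna1, Kcna3, Kcnma1 and Kcnn2 in both panels and of Kcna5 and Kcna6 for ob/ob.

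The inward rectifiers, which hold neurons near rest, were mostly too dim to test. Only Kcnj3 and Kcnj9 of 12 genes passed the signal limit, both subunits of channels opened by G proteins. Kcnj3 stood at 0.089 ± 0.14 for STZ and 0.16 ± 0.15 for ob/ob. Kcnj8 and Kcnj11, the pore subunits of ATP-sensitive channels, were under the limit, Kcnj8 by little (a geometric mean of 424). Their values are therefore from a fit without the limit, tested by exact, two-sided permutation of the arrays and adjusted over 6 such tests.

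Kcnj8, the ATP-sensitive pore subunit best known from vessels, read 505, 624, 531, 419, 223 and 406 in control mice. It read 370, 384, 208, 423, 587 and 309 in STZ mice and 680, 415, 484, 478 and 494 in ob/ob mice. The groups overlapped throughout. The log2 difference was -0.25 ± 0.24 for STZ, with a 95% interval from -0.74 to 0.25 (exact p = 0.413), and 0.23 ± 0.25 for ob/ob, from -0.29 to 0.75 (exact p = 0.457). Between ob/ob and STZ mice it was 0.47 ± 0.25 (exact p = 0.0844, adjusted 0.506).

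Kcnj11, the pore subunit of the ATP-sensitive channel of beta cells and neurons, was dimmer. It read 213, 274, 215, 205, 184 and 17.7 in control mice, 210, 216, 197, 240, 318 and 154 in STZ mice and 220, 241, 122, 164 and 257 in ob/ob mice. Control mouse 6 stood far below every other array. The difference was 0.61 ± 0.48 for STZ (interval -0.41 to 1.62, exact p = 0.494) and 0.44 ± 0.51 for ob/ob (interval -0.62 to 1.51, exact p = 0.816), and without control mouse 6 these values were 0.0063 and -0.16. The intervals reach past a 1.41-fold change downward for Kcnj8 in STZ mice, upward for Kcnj8 in ob/ob mice, upward for Kcnj11 in STZ mice and in both senses for Kcnj11 in ob/ob mice, so that changes of that size are not excluded. Abcc8, the sulphonylurea receptor that pairs with Kcnj11 and its neighbour on chromosome 7, was bright enough to test and read a mean of 552, 539.8 and 555 in control, STZ and ob/ob mice. Abcc9, the partner and neighbour of Kcnj8, was not tested.

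Without the signal limit, the comparison of STZ with control had 1 channel probe set past an adjusted p of 0.05, beside 0.0309% of all 22626 probe sets. It was the dimmest of the 3 probe sets of Kcnj9, which read 51, 66, 83, 115, 73 and 99 in control mice, 323, 213, 259, 124, 270 and 184 in STZ mice and 122, 191, 156, 128 and 111 in ob/ob mice. All STZ arrays lay above all controls, at signals far under the limit. The difference was 1.48 ± 0.25 for STZ (adjusted p = 0.0437) and 0.82 ± 0.27 for ob/ob (adjusted p = 0.302). The call was lost when any 1 of the 12 control or STZ arrays was left out (adjusted p from 0.0538 to 0.151), while the difference stayed between 1.36 and 1.65. The bright, tested Kcnj9 probe set stood at -0.026 ± 0.089 and 0.12 ± 0.094, and the third, also dim, at -0.33 ± 0.25 and -0.47 ± 0.26. The 3 probe sets of Kcnj9 thus disagreed in sign for STZ.

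**Figure D3:**
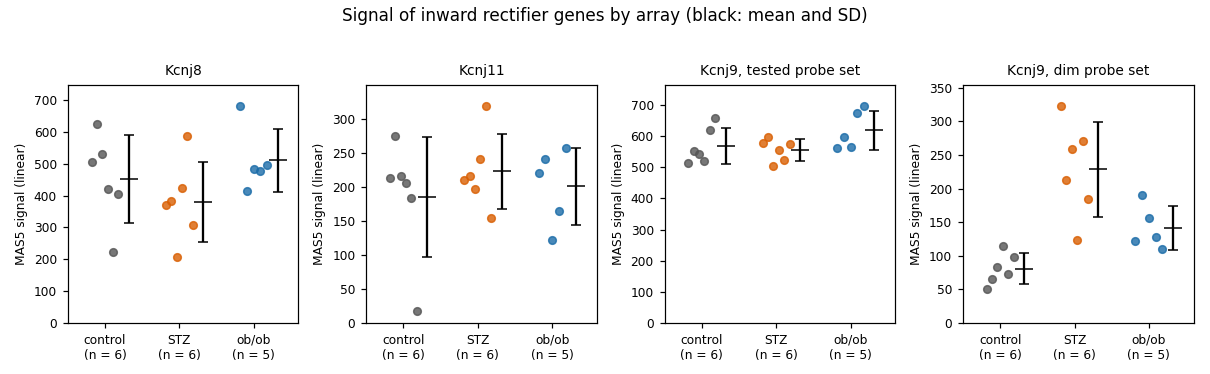
MAS5 signal (linear, axis from 0) of Kcnj8, Kcnj11 and the tested and the dim probe set of Kcnj9 on each array, with 6 control, 6 STZ and 5 ob/ob mice as points and the mean ± SD in black. The groups overlap for Kcnj8, Kcnj11 and the tested Kcnj9 probe set, 1 control array of Kcnj11 lies near 0, and the dim Kcnj9 probe set is higher in every STZ mouse than in any control mouse.

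Over all 67 channel probe sets under the limit, 5.97% had an unadjusted p under 0.05 for STZ against control, beside 4.73% of all dim probe sets. The share was 2.99% beside 4.77% for ob/ob against control and 2.99% beside 3.66% for ob/ob against STZ. The median standard error of these dim members was 0.34 for STZ and 0.36 for ob/ob on the log2 scale, where it was 0.089 and 0.094 for the tested ones. Closest to the limit stood Kcnmb2 and Cacng5 above it, with probe sets at 472 and 475, and Kcnj6 and Kcnj8 below it, at 426 and 424.

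The 2-pore channels carry the potassium leak that sets the resting potential. Kcnk1, the brightest of the 4 tested genes in controls, read 3203 to 4404 in control mice (median 3669), 3662 to 4358 in STZ mice (median 4046) and 4112, 3736, 4721, 4798 and 4116 in ob/ob mice. The difference was 0.11 ± 0.078 for STZ (adjusted p = 0.747) and 0.20 ± 0.081 for ob/ob (adjusted p = 0.324), and its other probe set gave 0.10 and 0.17. All 5 ob/ob mice lay above the geometric control mean of 3721, inside or above the control range. Kcnk3, an acid-sensitive leak channel, stood at 0.11 ± 0.13 for STZ and -0.13 ± 0.14 for ob/ob. Kcnk2 and Kcnk13 stood between -0.083 and 0.041 in both comparisons.

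Of the voltage-gated calcium channels, 6 pore genes were tested, and no p under 0.05 was found for their representative probe sets. The pore genes had a median of 0.052 for STZ, with 4 of 6 above 0, and -0.013 for ob/ob, with 3 of 6. Cacna1c, an L-type pore, stood at 0.16 ± 0.089 for STZ and 0.17 ± 0.094 for ob/ob. Cacna1b, the N-type pore of presynaptic terminals, stood at -0.18 ± 0.13 and -0.18 ± 0.14, and with the neighbouring region covariate at -0.31 and -0.41. In ob/ob mice it read 622, 619, 649, 683 and 956, so that 1 mouse lay apart from the other four. By brightest probe set, Cacna1a, Cacna1d, Cacna1g and Cacna1h, of P/Q, L and T type, stood between -0.041 and 0.10 in both comparisons. The second tested Cacna1a probe set gave -0.069 for STZ and 0.021 for ob/ob, where the brighter gave 0.10 and 0.0071. The second tested probe set of Cacna1d gave 0.19 ± 0.088 for ob/ob (unadjusted p = 0.0394), where the brighter one gave -0.033 ± 0.092.

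The accessory subunits of calcium channels traffic and tune the pore. By brightest probe set, the 3 Cacna2d genes, the binding partners of gabapentin-type drugs among them, stood between -0.046 and 0.074 in both comparisons. The second tested Cacna2d1 probe set gave -0.027 for STZ and -0.082 for ob/ob. Cacnb1 read 1168 to 1536 in control mice (median 1354) and 1588, 1555, 1386, 1593 and 1660.0 in ob/ob mice, with a difference of 0.18 ± 0.074 (adjusted p = 0.343). For STZ it stood at 0.056 ± 0.071. Cacnb2 stood at -0.25 ± 0.15 for STZ and -0.23 ± 0.16 for ob/ob, and Cacnb4 at -0.032 and 0.11. The second tested probe set of Cacnb4 gave -0.016 for STZ and -0.15 for ob/ob, so that the 2 were opposed in sign for ob/ob. Cacng2, or stargazin, which carries AMPA receptors to synapses, stood at -0.24 ± 0.13 for STZ (adjusted p = 0.634) and -0.22 ± 0.13 for ob/ob (adjusted p = 0.541), and at -0.35 and -0.40 with the neighbouring region covariate. Cacng3, Cacng4 and Cacng5 of the same family stood between -0.0064 and 0.14.

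Sodium channels were represented by 3 pore genes, Scn1a, Scn2a and Scn8a, and by the beta subunit Scn3b. By their brightest probe sets the pore genes had a median of 0.03 for STZ and 0.067 for ob/ob. Scn3b stood at 0.016 ± 0.058 and 0.094 ± 0.06. Scn8a, the main pore of the axon initial segment in the adult, stood at -0.029 ± 0.085 and 0.067 ± 0.09.

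For Scn2a the 2 probe sets pointed in opposite senses. The brighter read 5552 to 7117 in control mice (median 6188) and 7101, 6264, 6805, 6471 and 6974 in ob/ob mice. Its difference was 0.12 ± 0.054 for ob/ob (unadjusted p = 0.0407, adjusted p = 0.391) and 0.033 ± 0.052 for STZ. The dimmer read 2640.5 to 2990.2 in control mice (median 2834) and 2318, 2532, 2618, 2844 and 2548 in ob/ob mice. Its difference was -0.13 ± 0.06 for ob/ob (unadjusted p = 0.0465, adjusted p = 0.409) and -0.13 ± 0.057 for STZ (unadjusted p = 0.0374). No direction can be given for the gene. Scn1a also had unlike probe sets. The brighter stood at 0.028 ± 0.047 for ob/ob, while the dimmer read 881 to 1408 in control mice (median 1193), 835 to 1304 in STZ mice (median 1192) and 1078, 844, 856, 997 and 880.1 in ob/ob mice. All 5 ob/ob mice lay below the control mean, at -0.33 ± 0.12 (adjusted p = 0.288), and the difference from STZ mice was -0.28 ± 0.12 (unadjusted p = 0.0325). Of the 18 channel genes with at least 2 tested probe sets, the probe sets shared 1 sign in 7 genes for STZ, in 11 for ob/ob and in 10 for ob/ob against STZ. Scn2a in ob/ob mice was the only gene of the 18 with 2 opposed probe sets each at an unadjusted p under 0.05.

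**Figure D4:**
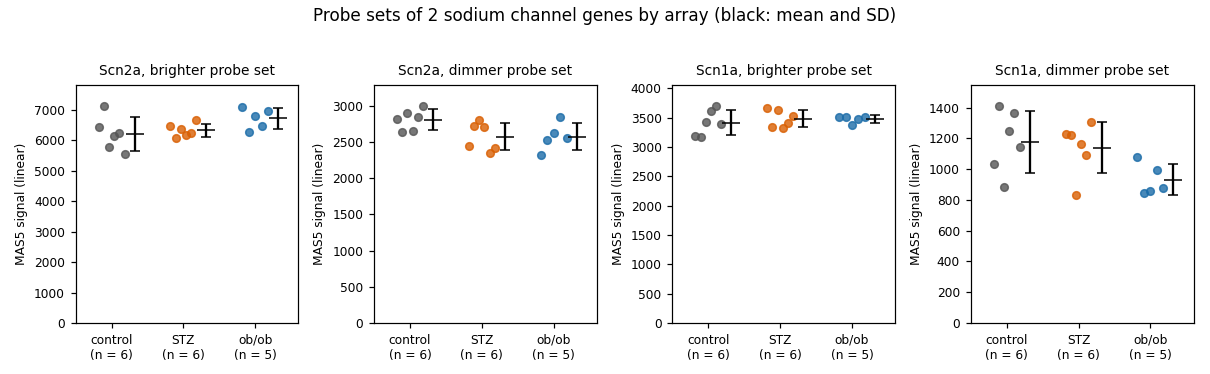
MAS5 signal (linear, axis from 0) of the 2 tested probe sets of Scn2a and of Scn1a on each array, with 6 control, 6 STZ and 5 ob/ob mice as points and the mean ± SD in black. The brighter Scn2a probe set is slightly higher and the dimmer slightly lower in ob/ob mice, and the dimmer Scn1a probe set is lower in ob/ob mice while the brighter is level.

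By gene, the 49 tested channels had a median log2 difference of 0.034 for STZ, with 31 above 0 (63.3%), beside 0.0044 over all 7990 genes tested, of which 51.7% were above 0. For ob/ob the median was 0.065, with 30 of 49 above 0 (61.2%), beside 0.0053 and 51.9% over all genes. Between ob/ob and STZ it was 0.018, with 29 of 49 above 0. With each array left out in turn, the STZ median ran from 0.018 (without control mouse 3) to 0.074 (without control mouse 2), and the ob/ob median from 0.03 (without control mouse 3) to 0.088 (without control mouse 1). The median of ob/ob against STZ ran from 0.011 (without STZ mouse 3) to 0.052 (without STZ mouse 2). Of 18 other genes of channel complexes and their partners, 9 were tested: Abcc8, Hcn2, Hcn3, Dpp6, Ank3 and Fgf11 to Fgf14. None of the 9 reached an adjusted or an unadjusted p under 0.05 in any comparison, and the pacemaker channel Hcn3 was farthest from 0, at -0.24 for STZ and -0.21 for ob/ob.

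The level of markers of the brain regions beside the hypothalamus differed in value between the groups. Of 21 such markers of striatum, cortex and thalamus, 14 were on the array and 9 tested. Their summed signal was 14050.5 to 20983.4 in control mice, 16643.3 to 21298.5 in STZ mice and 20075 to 23681 in ob/ob mice. Their mean log2 level was 10.65 ± 0.22 (SD, n = 6), 10.86 ± 0.14 (n = 6) and 11.01 ± 0.092 (n = 5). Of the 9, 8 were above control for STZ and 9 for ob/ob, where 6 had an unadjusted p under 0.05 and 0 passed adjustment. Among them the thalamic kinase Prkcd stood at 0.66 ± 0.20 and the striatal phosphoprotein Ppp1r1b at 0.48 ± 0.15 for ob/ob (adjusted p = 0.164 and 0.208). Drd1, Adora2a, Neurod6, Slc17a7 and Tbr1 were among those not tested. Of 13 hypothalamic markers 7 were tested, Pomc, Npy, Oxt, Avp, Hcrt, Trh and Sim1. Their mean level was 11.63 ± 0.11, 11.54 ± 0.13 and 11.42 ± 0.10 in control, STZ and ob/ob mice. In each model 2 of the 7, Npy and Avp, were above control and 5 below. Pomc alone passed adjustment, at -0.65 for STZ and -0.75 for ob/ob (adjusted p = 0.0384 and 0.0121, limma). The mean level of 8 neuronal markers was 12.96 ± 0.047, 12.95 ± 0.036 and 12.91 ± 0.019. Of 6 oligodendrocyte markers tested, 5 were above control in ob/ob mice and 4 in STZ mice, with medians of 0.088 and 0.011, and 0 passed adjustment. In bulk tissue fewer cells of a type and less RNA per cell cannot be told apart.

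With the neighbouring region level of each array as a covariate, the channel probe sets higher in ob/ob mice at an unadjusted p under 0.05 went from 10 to 2, and the median over the 49 genes from 0.065 to 0.017. Over all 13576 probe sets, those higher went from 780 to 489 and those lower from 831 to 436. In either direction the share went from 20.3% to 8.7% of the channels, beside 11.9% to 6.81% of all probe sets. Of the 10, 1 (Kcnn2) was among the 2, and the other was Kcnip1, at 0.37 beside 0.16. Without the covariate the 3 tested probe sets of Kcnip1 ran from -0.077 to 0.16 for ob/ob and from -0.086 to 0.17 for STZ. With and without the covariate 4 were lower, of which 2 were shared, Kcna6 and the dimmer probe set of Scn1a. Kcna3 and the dimmer probe set of Scn2a left this group, and Cacna1b and Cacng2 entered it. The dimmer Scn1a probe set was then at -0.65, beside -0.33, with an unadjusted p of 0.000214 (limma). The brighter one was at 0.028 without the covariate. In the covariate fit 0 of all 13576 probe sets were past an adjusted p of 0.05 for STZ or ob/ob against control. Kcna1 went from 0.31 to 0.029, Kcna5 from 0.24 to 0.094 and Kcnip2 from 0.34 to -0.069. Kcnn2 was at 0.26 ± 0.12, beside 0.30, and Kcnk1 at 0.24 ± 0.12, beside 0.20 ± 0.081. Cacnb1 was at 0.18 ± 0.11, beside 0.18 ± 0.074, and the dimmer probe set of Cacna1d at 0.19, beside 0.19. Kcnk1, Cacnb1 and this Cacna1d probe set thus left the count with a like or larger difference (unadjusted p = 0.0581, 0.107 and 0.143, limma). Kcna6 was at -0.23 ± 0.089, the same value as without the covariate, and Kcna3 at -0.28 ± 0.19, beside -0.39. For STZ, Kcna3 was at -0.42 ± 0.15 and Kcna1 at 0.17 ± 0.093. None of Kcna1, Kcnma1 and Kcnn2 had an unadjusted p under 0.05 for STZ in this fit, and Kcnip1 did, at 0.30 beside 0.17. Lower in STZ mice at that p were Kcna3, Cacna2d3 (-0.18, beside -0.046), Kcnd2 (-0.17, beside -0.081), Cacng2 and Cacna1b. The sign turned for 7 of the 31 named genes tested for ob/ob and for 1, Kcnip2, for STZ. The part of the neighbouring regions in these values was not tested beyond this fit, in which level and group are partly confounded.

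**Figure D5:**
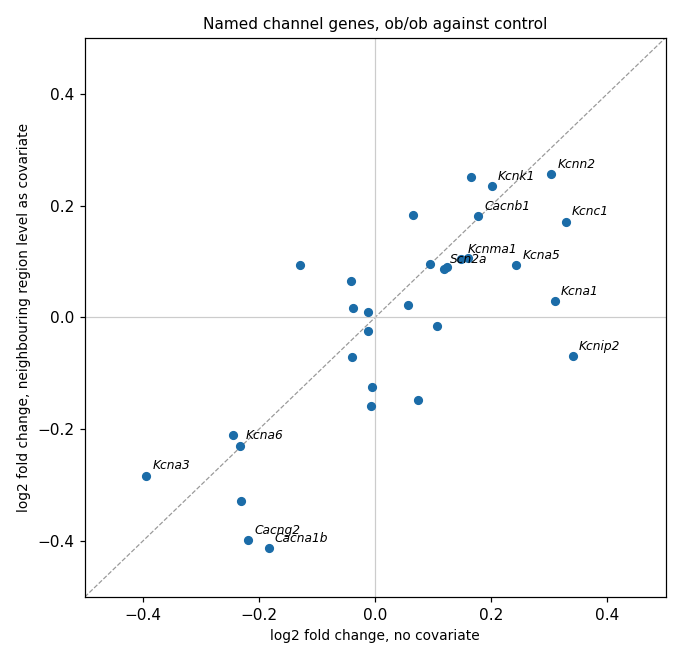
Log2 fold change of ob/ob against control for the named channel genes that were tested, without (x axis) and with (y axis) the neighbouring region level of each array as a covariate, 1 point per gene and a dashed line where both are equal. Kcna1 falls from 0.31 to 0.029 and Kcnip2 from 0.34 to -0.069, while Kcna6 stays at -0.23 and Kcnn2 lies at 0.26.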

How the data were processed

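The authors deposited 1 MAS5 signal per probe set and array, in the unit intensity (MAS5 per the submitters' processing notes; its version, scaling target, detection calls and genome build are not given in the sources used here). All signals were positive, from 0.1 to 48576.7, with a trimmed mean of about 1500.4 on each array, and arrays correlated at 0.954 to 0.972. Per the labels' protocols, RNA of each hypothalamus was column-purified and copied with an oligo(dT) primer into biotin-labelled cRNA. Groups came from the sample titles, which name no batch. Replicate numbers were treated as names: same-numbered samples deviated together in 1 of 16 pairs (correlation over 0.1, median 0.023). Without a comparison to differently numbered samples, this cannot exclude a shared batch.

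After removal of 64 control probe sets, log2 signals above the 40th percentile of the mean were fitted with 3 group means in limma 3.58.1 (R 4.3.3, lmFit, eBayes with trend) and tested on 3 contrasts with Benjamini-Hochberg adjustment over 13576 probe sets. The procedure was first tested on simulated data. A gene is represented by its brightest tested probe set (_x_at kinds only where alone). Gene names are those of the platform annotation, and the Entrez identifiers of all 136 member probe sets were found in the RefSeq gene table. MAS5 levels of different probe sets were not compared as amounts of RNA. The limma p-values weigh a group difference against the spread between mice within the groups. The number of mice limits the precision.

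The members, gene lists and named-gene rule were chosen with earlier results of these data known. The rule named Kcnj8 and Kcnj11, any member called, for each contrast the 6 genes of smallest p in each direction, the brightest gene of each family in controls, and genes with opposed probe sets. This gave 33 genes, and others are named to complete a family. Alternatives were the signal filter, log2 of signal plus 100, quantile normalization, no trend, array weights (statmod 1.5.0), a replicate block, the neighbouring region covariate, 2-group fits, the mean of probe sets, and leaving out each array. Promoter windows came from RefSeq.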

Additional observations from a re-analysis of the deposited data

Results flagged for a closer look

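In 108 groups of 5 or 6 arrays of the named genes and the neighbouring region level, the highest or lowest array was checked for its distance from the rest of its group. Chance alone gives about 5.4 such arrays at the 5% level used, and 4 were found. Kcnj11 read 17.7 in control mouse 6, where the other controls read 183.5 to 274.3. Kcnn2 read 1264.6 in control mouse 2, with the other controls at 883.9 to 1005.9. Kcnma1 read 2365.7 in ob/ob mouse 1, with the others at 2690.1 to 2819.4. Cacna1b read 955.6 in ob/ob mouse 5, with the others at 619.0 to 682.9.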

How the results depend on the processing

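No setting moved the count of channel probe sets past an adjusted p of 0.05 off 0 in ob/ob against STZ. For STZ against control it was 1 without a signal filter (7 of all 22626 probe sets, beside 7 of 13576). For ob/ob against control it ranged from 0 to 1 when each array was left out. The 1 was Kcnn2 without control mouse 2, where 38 of all probe sets passed, beside 17 with every array. Counted at an unadjusted p under 0.05, channels higher in STZ mice were 6 without a filter, 6 with array weights and 1 with the neighbouring region covariate, against 3. Over all probe sets these counts were 807 of 22626, 689 and 541, against 525. Channels lower in STZ mice were 1 with a filter at the 60th percentile (468 of all 9051) and 5 with the covariate (467 of all 13576, beside 594). Channels higher in ob/ob mice were 2 with the covariate (489 of all probe sets, beside 780), and the median of the channel genes was then 0.017. Between ob/ob and STZ, 4 were lower without a filter (469 of all 22626), and the median was 0.0603 with the filter at the 60th percentile. In that comparison 1 was higher with the replicate block and with a fit of only the 2 groups (273 and 263 of all, beside 262). Leaving out each array gave 2 to 6 higher and 1 to 4 lower for STZ, with medians of 0.018 to 0.074. It gave 5 to 10 higher and 3 to 6 lower for ob/ob, and 0 to 3 higher and 0 to 2 lower between ob/ob and STZ, with medians of 0.03 to 0.088 and 0.011 to 0.052. Over all probe sets these fits gave 432 to 749 higher and 439 to 762 lower for STZ. They gave 669 to 893 and 690 to 951 for ob/ob, and 224 to 332 and 234 to 328 between ob/ob and STZ. The count for STZ was 6 higher without control 2 (707 of all probe sets, beside 525), and 1 lower without control 1, 3 or 6 or STZ 5 (439 to 532 of all probe sets, beside 594). For ob/ob it was 5 higher without control 3 and 6 without control 1, control 5 or ob/ob 3. The cause of these shifts was not tested. With the replicate block, 2 were higher and 2 lower for STZ, 9 and 3 for ob/ob, and 0 passed adjustment. Over all probe sets those counts were 524 and 551 for STZ and 769 and 776 for ob/ob, and 5 and 19 passed. The sample titles do not state that the numbers pair the samples.

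Single fold changes of tested genes were compared across all settings only in the comparison that named the gene, and for Scn2a in every comparison. There the mean of its probe sets turned Scn2a to -0.047 for STZ and -0.0046 for ob/ob, and the covariate turned Kcnip2 to -0.069 for ob/ob. Over all 31 named genes tested, the covariate turned the sign of 7 for ob/ob, of 1 for STZ (Kcnip2, to -0.11) and of 2 for ob/ob against STZ. Kcnj11 turned to -0.25 with the covariate and -0.16 without control 6 for ob/ob, and to 0.000769 without ob/ob 3 between ob/ob and STZ. The dim Kcnj9 probe set was past the threshold with log2 of signal plus 100 (0.84) and not with quantile normalization, the replicate block or the covariate (1.44, 1.48 and 1.52, adjusted p = 0.0666, 0.22 and 0.25, beside 1.48). The fits of Kcnj8, Kcnj11 and the dim probe sets of Kcnj9 and Kcnip2 without a filter were added after seeing the data. The precision limits what could be seen: dim members have standard errors near 0.34.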
